A study of Mus musculus with 50 samples.

Results

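Primary p53/MCA sarcomas of mice that received an antibody against PD-1 and no radiation were compared with primary sarcomas of mice that received the isotype control antibody and no radiation. Members were all samples that the submitters labelled as primary tumor RNA at a dose of 0 Gy, which gave 8 anti-PD-1 and 8 isotype tumors, 16 of the 50 libraries of the series. A further tumor with the isotype labels, the untreated parent of the cell line 402230, was kept out of the group and entered an alternative fit only. The mice were of the pure 129/SvJae strain and carried Trp53 fl/fl, a conditional allele of the tumor suppressor p53. Sarcomas were induced at an age of 6 to 10 weeks by injecting an adenovirus that expresses Cre recombinase into the gastrocnemius muscle, followed by 300 µg of 3-methylcholanthrene (MCA), a carcinogen that damages DNA. Each tumor therefore arose in its own host, and the isotype tumors carried the same Trp53 deletion and the same carcinogen exposure as the treated ones. At a volume of about 150 mm3 the mice received 200 µg of muDX400, a murine anti-PD-1 antibody, or the isotype control into the peritoneum, and tumors were taken 3 days later. The study used male and female mice, and the sex of each mouse was not used here. Messenger RNA of whole tumors was sequenced, so malignant, stromal and immune cells were measured together.

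PD-1, encoded by Pdcd1, is a receptor that activated T cells place on their surface. When its ligand PD-L1, encoded by Cd274, binds on a tumor or myeloid cell, the receptor recruits phosphatases that dampen signals from the T cell receptor, and the antibody blocks this contact. T cells released from this brake can secrete interferon-gamma, which acts on nearby cells to switch on genes such as Irf1, Cxcl9 and the MHC genes. The comparison therefore asked which transcripts of the whole tumor differed a few days after PD-1 blockade on its own.

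Isotype libraries held 37743696 to 49181237 gene counts with a median of 41885776, and anti-PD-1 libraries held 37747858 to 53341463 with a median of 42673048. Levels are given in CPM, the counts scaled by library size, and 1 CPM corresponded to 34.7 to 55.4 counts in a library. Skeletal muscle markers, from the tissue around the tumor, varied widely within both groups. Their mean level ran from 2.28 to 8.78 log2 CPM in isotype tumors with a median of 6.57, and from 2.49 to 8.59 in anti-PD-1 tumors with a median of 6.61. Trp53 (chr11:69580359-69591873 on the plus strand of GRCm38) had 20.2 to 28.0 CPM in isotype tumors and 20.97 to 48.5 CPM in anti-PD-1 tumors. Its log2 fold change was 0.29 with a standard error of 0.176, and the ranges of both groups overlapped. The number of genes at or above 1 CPM was 13613 to 14024 in isotype tumors with a median of 13721, and 13582 to 14055 in anti-PD-1 tumors with a median of 13926.5. Anti-PD-1 tumors had 128.75 more such genes on average, a difference that an exact two-sided permutation test over the 12870 splits of 8 against 8 tumors placed at p = 0.112.

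No gene passed the test between anti-PD-1 and isotype tumors in unirradiated primary sarcomas. With edgeR's quasi-likelihood test, 0 of 19327 genes tested (0%) had an adjusted p under 0.05, and the smallest adjusted p was 0.169. It belonged to Mab21l2, a developmental gene with 80.3 CPM in 1 anti-PD-1 tumor, a median of 0.121 CPM in that group and at most 0.220 CPM in the isotype tumors. At an unadjusted p under 0.05 there were 707 genes (3.66%), of which 356 (1.84%) had higher and 351 (1.82%) had lower values under anti-PD-1. Values of single genes are therefore given below as measured differences within the spread between tumors and not as changes. DESeq2 called 6 genes and gave 752 at an unadjusted p under 0.05, while limma-voom called 0 and gave 460. Among 11754 protein-coding genes with an average of at least 2 log2 CPM, 0 (0%) had all anti-PD-1 tumors above all isotype tumors and 0 (0%) had all of them below. Such averages, here and below, were taken over all 48 tumors fitted together, with irradiated tumors and transplants included. The same holds where a gene is said to have the highest average CPM of its list.

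The precision of the comparison set how large a difference it could have missed. The median 95% confidence interval of a log2 fold change reached 0.509 to either side over all genes and 0.36 over the 11754 protein-coding genes of at least 2 log2 CPM. For 10311 of the latter (87.7%) the whole interval lay between −1 and 1, which leaves larger differences outside it. The median log2 fold change over all genes was −0.03, and 8290 genes (42.9%) had a positive value. The 5th percentile of the log2 fold changes was −0.51 and the 95th was 0.76.

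**Figure D1:**
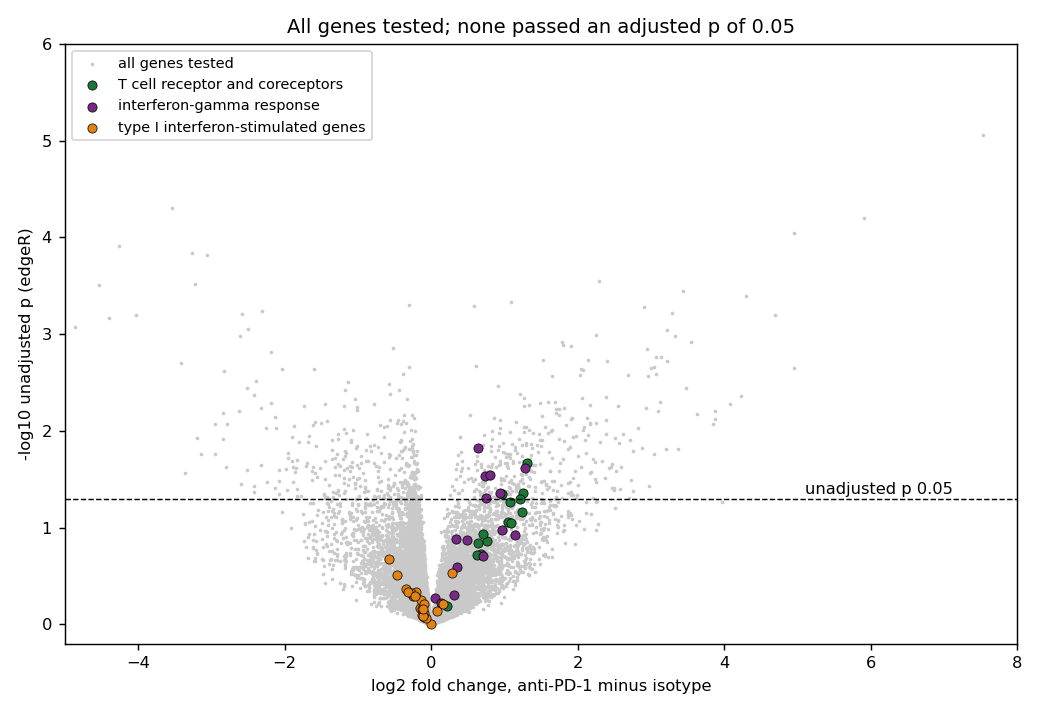
Each point is 1 of the 19327 genes tested in unirradiated primary tumors, with the log2 fold change of anti-PD-1 over isotype on the x axis and the −log10 of the unadjusted p from edgeR on the y axis. The dashed line marks an unadjusted p of 0.05; 707 genes lie above it and none of them passed the adjusted threshold. Coloured points are the members of 3 gene lists named in the key.

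Pdcd1 (ENSMUSG00000026285.7, chr1:94038305-94052553 on the minus strand), which encodes the target of the antibody, had 0.616 to 5.32 CPM in isotype tumors with a median of 1.79, and 2.29 to 12.3 CPM in anti-PD-1 tumors with a median of 6.09. All 8 anti-PD-1 tumors lay above the isotype median, but isotype replicates 2, 6 and 4, at 3.05, 3.95 and 5.32 CPM, lay within the anti-PD-1 range. The log2 fold change was 1.30 with a 95% interval of 0.17 to 2.43 and an unadjusted p of 0.0268, and the adjusted p was 1. Cd274 (ENSMUSG00000016496.7, chr19:29367455-29388095 on the plus strand), which encodes PD-L1, had 3.18 to 20.5 CPM in isotype tumors with a median of 5.67, and 6.18 to 26.3 CPM in anti-PD-1 tumors with a median of 11.5. All 8 anti-PD-1 tumors were again above the isotype median, while isotype replicate 4, at 20.5 CPM, was exceeded by anti-PD-1 replicate 1 alone. Its log2 fold change was 0.73 with an interval of −0.02 to 1.47 and an unadjusted p of 0.0579, and it was 1.10 with 0.00417 without isotype replicate 4. Over the fits that left out 1 tumor each, it ranged from 0.494 to 1.10, with unadjusted p values from 0.00417 to 0.193.

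Over the list of ligands of checkpoint receptors, Cd274 included, 7 of 11 tested had positive values with a median log2 fold change of 0.21, and 0 reached an unadjusted p of 0.05. Vtcn1, an inhibitory ligand of the B7 family, had too few counts to be tested. Lgals9, which encodes galectin-9 and had the highest average CPM of the list, had a log2 fold change of −0.0036 and an interval of −0.50 to 0.50.

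**Figure D2:**
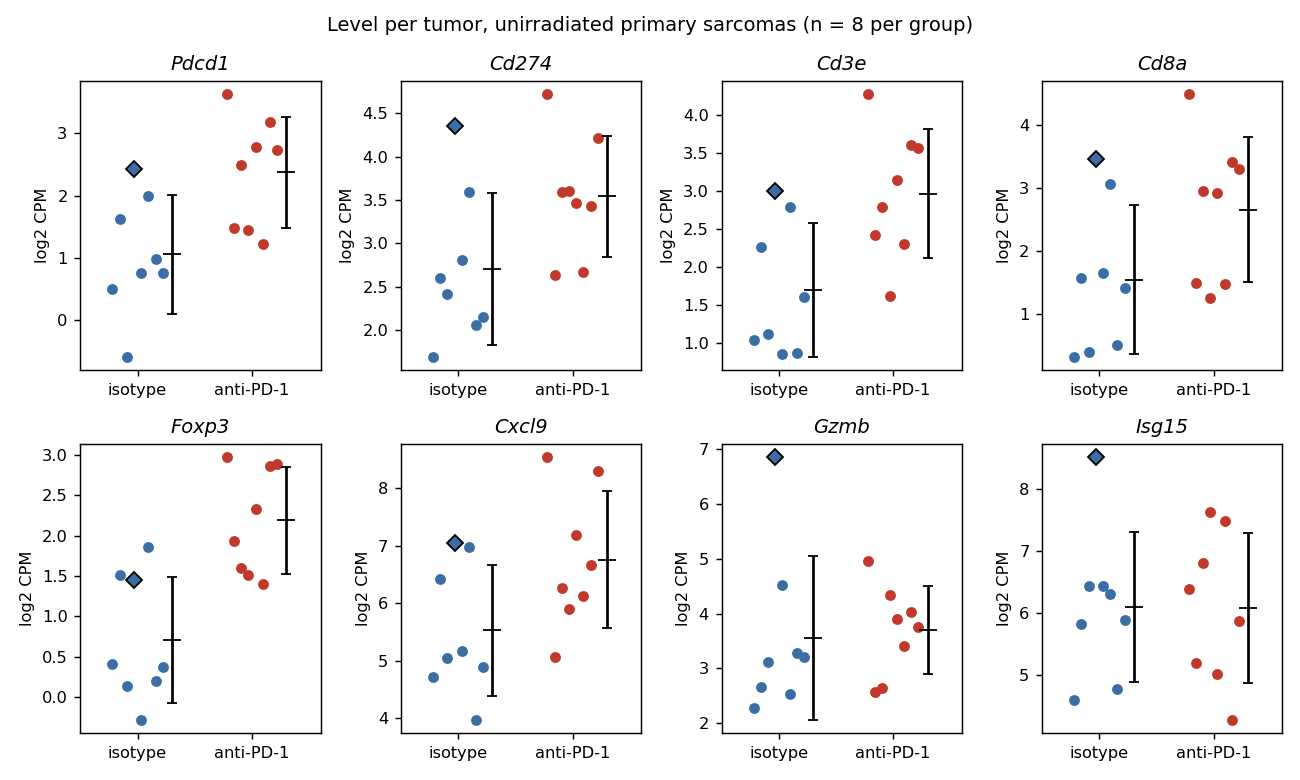
Levels of 8 genes in log2 CPM on the y axis for the 8 isotype tumors (blue) and the 8 anti-PD-1 tumors (red), with bars for the mean and SD of each group. Isotype replicate 4 is drawn as an outlined diamond; it had 5.32 CPM of Pdcd1, 115.6 CPM of Gzmb and 368 CPM of Isg15, the highest isotype values of these genes.

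Genes of the T cell receptor complex and its coreceptors had positive values throughout. All 14 had a log2 fold change above 0, against 42.9% of all genes, and the median was 1.01 against −0.03 over all genes. Of the 14, 3 had an unadjusted p under 0.05, all of them higher, beside 1.84% of all genes in that direction. Of the 14, 0 passed the adjusted threshold. The mean level of the list ran from 0.74 to 2.87 log2 CPM in isotype tumors and from 1.55 to 3.64 in anti-PD-1 tumors. Members of a list were measured in the same tumors and can vary together. Counts of members, for this list and the others, are therefore not counts of independent observations. Because these are whole tumors, more T cells and more RNA per T cell cannot be told apart.

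Cd3e, an invariant chain of the T cell receptor complex, had 1.76 to 7.98 CPM in isotype tumors with a median of 2.56, and 3.03 to 19.4 CPM in anti-PD-1 tumors with a median of 7.83. Isotype replicates 6 and 4, at 6.89 and 7.98 CPM, stood near the anti-PD-1 median, while anti-PD-1 replicate 1 was the highest of the 16 tumors at 19.4 CPM. The log2 fold change was 1.25 with a standard error of 0.595 and an unadjusted p of 0.0437. Exons of Cd3e and Lck overlap those of other annotated genes (Gm48719 and Mir8119), so their counts may be uncertain. Cd5, a surface brake on T cell receptor signals, had the smallest unadjusted p of the list at 0.0216, with a log2 fold change of 1.30. Lck, the kinase that starts the signal, had a log2 fold change of 0.64 and an unadjusted p of 0.145. It had the highest average CPM of this list over all 48 tumors, which is not the average of the 16 tumors compared here.

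The coreceptors of cytotoxic and helper T cells had different point values. Cd8a had 1.20 to 11.0 CPM in isotype tumors with a median of 2.77, and 2.33 to 22.4 CPM in anti-PD-1 tumors with a median of 7.60, and its log2 fold change was 1.05 with an unadjusted p of 0.0882, and 0.641 without anti-PD-1 replicate 1. Cd4, which is also present on some macrophages, had medians of 8.52 and 9.43 CPM and a log2 fold change of 0.21 with an unadjusted p of 0.642. Relative to Cd3e in the same library, Cd4 had a median log2 ratio of 1.576 in isotype tumors and 0.349 in anti-PD-1 tumors. The ranges, 0.218 to 2.769 and −0.16 to 1.031, overlapped. The median log2 ratio of Cd8a to Cd3e was −0.274 and −0.256, also with overlapping ranges. Within-library ratios of 2 genes are given in CPM without correction for transcript length, so they compare groups and not genes.

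Checkpoint and costimulatory receptors of T cells, which either hold back or sustain an activated cell, had 11 of 13 positive values and a median log2 fold change of 0.64. Unadjusted p values under 0.05 were found for 5 of the 13, all with higher values under anti-PD-1, beside 1.84% of all genes. Ctla4 (ENSMUSG00000026011.13, chr1:60887000-60915832 on the plus strand) encodes an inhibitory receptor that competes for CD80 and CD86 and had the smallest p of the list. It had 0.641 to 3.00 CPM in isotype tumors with a median of 1.25, and 2.19 to 6.203 CPM in anti-PD-1 tumors with a median of 4.06. Isotype replicates 6 and 4, at 2.28 and 3.00 CPM, were the only ones inside the anti-PD-1 range. The log2 fold change was 1.52 with an interval of 0.46 to 2.58 and an unadjusted p of 0.00704. Icos, a costimulatory receptor, had a log2 fold change of 1.24 with an unadjusted p of 0.0248. Vsir, an inhibitory receptor that is also abundant on myeloid cells and had the highest average CPM of this list, had a log2 fold change of 0.08 with an interval of −0.36 to 0.53.

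Regulatory T cell genes held a larger share of small p values than the other lists. All 8 had positive values with a median log2 fold change of 0.95, and 6 of the 8 had an unadjusted p under 0.05, beside 1.84% of all genes in that direction. Ctla4 and Tnfrsf18 belong to this list and to the receptor list, so the 2 counts are not separate. Foxp3 (ENSMUSG00000039521.12, chrX:7573644-7595245 on the plus strand), the transcription factor that defines these cells, had 0.777 to 3.59 CPM in isotype tumors with a median of 1.27. In anti-PD-1 tumors it had 2.60 to 7.81 CPM with a median of 4.39. Isotype replicates 4, 2 and 6 lay inside the anti-PD-1 range and the other 5 isotype tumors lay below all anti-PD-1 tumors.

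Foxp3 had a log2 fold change of 1.44 with an interval of 0.33 to 2.55 and an unadjusted p of 0.0138. Its exons overlap those of Flicr and other annotated genes, so some of its counts may have been shared with or lost to them. Il2ra, the high-affinity chain of the interleukin-2 receptor, had a log2 fold change of 0.94 with an unadjusted p of 0.0221. Ccr8, a chemokine receptor common on regulatory T cells in tumors, had 1.35 and an unadjusted p of 0.0316. Tnfrsf18, which encodes the costimulatory receptor GITR, had 0.95 and 0.0319, and Ikzf2, which encodes the factor Helios, had 0.82 and 0.0236. The interleukin Il10 had 0.88 with an unadjusted p of 0.0527, and Lrrc32, which presents latent TGF-beta and is also expressed by endothelium and had the highest average CPM of the list, had 0.33 with 0.35.

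Relative to Cd3e in the same tumor, Pdcd1 and Foxp3 had close medians in both groups. The median log2 ratio of Pdcd1 over Cd3e was −0.608 in isotype tumors and −0.533 in anti-PD-1 tumors, and that of Foxp3 over Cd3e was −0.949 and −0.776, with overlapping ranges for both. Across the 16 tumors the log2 CPM of Cd3e and Pdcd1 had a Pearson's r of 0.921 and a Spearman's rho of 0.926. The permutation p of both was 1e-05, the smallest that 100000 permutations can give, and the adjusted p over the 3 relations computed was 1.5e-05 and 3e-05. Without the 2 tumors farthest from the median of Cd3e, r was 0.904, and it was 0.823 within isotype tumors and 0.929 within anti-PD-1 tumors.

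Genes of T cell differentiation and activation had 9 of 12 positive values and a median log2 fold change of 0.46. Cxcr3, the receptor for the chemokine encoded by Cxcl9, had a log2 fold change of 0.97 with an unadjusted p of 0.0702. Entpd1, which encodes the ectonucleotidase CD39, was the only member with an unadjusted p under 0.05, and its value was negative. It had 75.8 to 372 CPM in isotype tumors with a median of 140.1, and 44.8 to 125.7 CPM in anti-PD-1 tumors with a median of 97.2. All 8 anti-PD-1 tumors lay below the isotype median, while isotype replicates 8 and 5, at 75.8 and 101.1 CPM, lay among them. Its log2 fold change was −0.77 with an unadjusted p of 0.00532, and −0.446 with 0.076 without isotype replicate 3. Cd3e had an isotype median of 2.56 CPM. Whole-tumor RNA does not show which cells the Entpd1 transcripts came from, so its value cannot be assigned to T cells. Cd44, an adhesion receptor that tumor cells also carry and that had the highest average CPM of this list, had −0.21 with an interval of −0.56 to 0.13.

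Effector genes of cytotoxic T cells and NK cells had values on both sides of 0. Of 14 tested, 7 were positive, the median log2 fold change was −0.03, and 0 reached an unadjusted p of 0.05. Gzmb, a protease that cytotoxic cells deliver into their targets, had 4.81 to 115.6 CPM in isotype tumors with a median of 8.93. In anti-PD-1 tumors it had 5.92 to 30.9 CPM with a median of 14.1. Isotype replicate 4 stood at 115.6 CPM with the next isotype tumor at 22.9 CPM, and 6 of 8 anti-PD-1 tumors lay above the isotype median.

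The fitted log2 fold change of Gzmb was −0.63 with an interval of −1.70 to 0.45, and it was 0.622 without isotype replicate 4. Gzma, another granzyme, had 41.3 CPM in the same isotype tumor against at most 6.73 CPM under anti-PD-1, and a log2 fold change of −1.24 with an unadjusted p of 0.055, which was −0.138 without that tumor. Ifng, which encodes interferon-gamma, stayed below 1 CPM in every tumor, with medians of 0.0688 CPM under isotype and 0.195 CPM under anti-PD-1 and a log2 fold change of 0.95 with an unadjusted p of 0.202. Without isotype replicate 4 the median log2 fold change of the cytotoxic list was 0.543, with 11 of 14 members positive, and with the median-ratio scaling (RLE) over all tumors it was 0.0182.

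**Figure D3:**
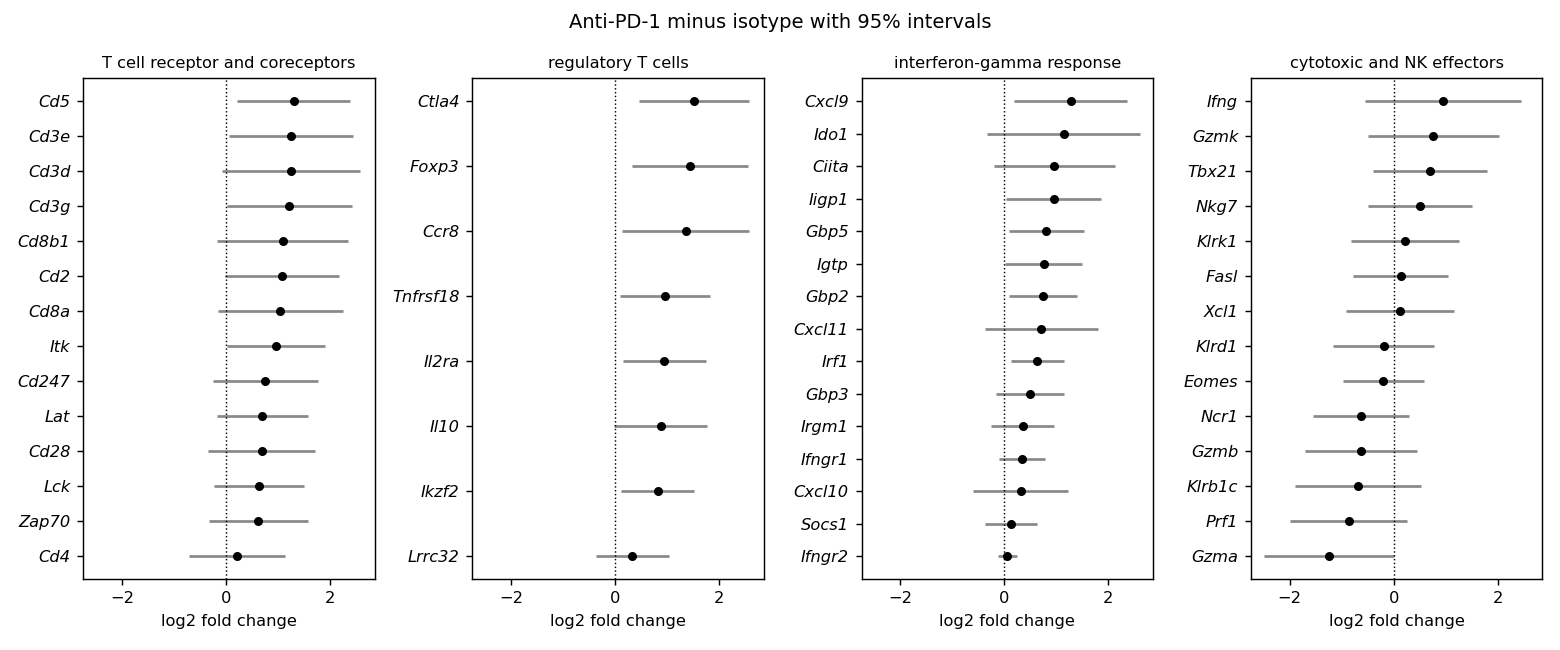
Log2 fold changes of anti-PD-1 over isotype with 95% confidence intervals on the x axis for the members of the T cell receptor, regulatory T cell, interferon-gamma response and cytotoxic effector lists. The first 3 lists lie to the right of 0 with all members (14 of 14, 8 of 8 and 15 of 15) and with wide intervals, and the cytotoxic list lies on both sides with 7 of 14 members positive. Members of a list come from the same tumors and are not independent.

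Interferons reach their target genes through short DNA motifs in promoters. The element typical of genes that answer interferon-gamma is the GAS element, searched here as TTCNNNGAA, which reads the same on both strands. The element typical of genes that answer type I interferon was searched here as GAAANNGAAA on both strands. The promoters below are the 250 bases before the RefSeq gene start in GRCm38.p6, read 5′ to 3′ along the gene, with matches to the motif for which each is shown in capitals. The members shown are a regulator and a GTPase of the interferon-gamma list with a GAS match, and an effector pair of the type I list with a match to the other motif. Irf1 (chr11:53769764-53770013, plus strand) held 1 GAS match whose first base lies 90 bases before the gene start, and Igtp (chr11:58199306-58199555, plus strand) held 1 at 45 bases. Igtp also held GAAANNGAAA, which is left in lower case. Isg15 (chr4:156200819-156201068, minus strand) held 3 overlapping matches to GAAANNGAAA, at 78, 72 and 66 bases, and Ifit1 (chr19:34640639-34640888, plus strand) held 2 on the opposite strand.
Irf1: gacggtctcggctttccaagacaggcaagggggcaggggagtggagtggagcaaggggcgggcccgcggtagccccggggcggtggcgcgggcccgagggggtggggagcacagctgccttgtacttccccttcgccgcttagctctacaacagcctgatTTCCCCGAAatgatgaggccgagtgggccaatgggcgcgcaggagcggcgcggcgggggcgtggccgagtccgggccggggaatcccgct
Igtp: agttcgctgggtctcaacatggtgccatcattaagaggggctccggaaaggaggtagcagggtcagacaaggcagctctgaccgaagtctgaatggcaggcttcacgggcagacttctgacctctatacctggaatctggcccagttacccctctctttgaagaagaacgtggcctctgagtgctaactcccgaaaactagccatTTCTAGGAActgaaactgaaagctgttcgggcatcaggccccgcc
Isg15: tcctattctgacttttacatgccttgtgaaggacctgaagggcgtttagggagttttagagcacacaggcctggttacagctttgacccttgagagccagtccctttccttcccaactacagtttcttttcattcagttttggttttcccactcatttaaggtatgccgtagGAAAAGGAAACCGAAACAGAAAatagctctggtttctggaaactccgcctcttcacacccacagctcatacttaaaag
Ifit1: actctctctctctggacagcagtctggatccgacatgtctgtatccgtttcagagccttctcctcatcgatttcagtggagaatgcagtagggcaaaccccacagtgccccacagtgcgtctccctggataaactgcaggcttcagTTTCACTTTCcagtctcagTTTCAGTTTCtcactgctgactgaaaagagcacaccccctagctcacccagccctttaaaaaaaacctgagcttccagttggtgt

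Of the 15 interferon-gamma response genes, 11 had a promoter in the RefSeq table, and 3 of these held the GAS letters (Gbp5, Igtp and Irf1) beside 8.34% of the promoters of 13123 genes tested and matched. GAAANNGAAA was found in 7 of those 11 and in 10 of 17 matched promoters of the 23 type I genes, beside 3.83% of the 13123. GAS letters were found in 3 of the 17 type I promoters. For these counts every promoter window of a gene was searched in full, while the sequences printed above are limited to 250 bases of 1 window. A match describes these letters in the window searched and not binding.

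Response genes of interferon-gamma had positive values in all 15 members, with a median log2 fold change of 0.71. Of the 15, 6 had an unadjusted p under 0.05, all higher, beside 1.84% of all genes in that direction. Irf1 (ENSMUSG00000018899.16, chr11:53770014-53778374 on the plus strand), the transcription factor whose promoter is printed above, had 56.7 to 124.04 CPM in isotype tumors with a median of 87.7. In anti-PD-1 tumors it had 107.995 to 188 CPM with a median of 123.1. All anti-PD-1 tumors exceeded the isotype median, and of the isotype tumors replicates 6 and 4, at 115.3 and 124.04 CPM, reached their range. Its log2 fold change was 0.64 with an interval of 0.13 to 1.14 and an unadjusted p of 0.015, the smallest of the list. Its exons overlap those of Gm17334, so its counts may have been shared.

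Cxcl9 (chr5:92321347-92328079 on the minus strand), a chemokine that draws T cells with the receptor CXCR3, had 15.7 to 132.3 CPM in isotype tumors with a median of 34.5. In anti-PD-1 tumors it had 33.4 to 374 CPM with a median of 89.4. Anti-PD-1 replicates 8 and 1, at 315 and 374 CPM, stood above all other tumors, and 5 of the other 6 anti-PD-1 tumors lay within the isotype range. Its log2 fold change was 1.28 with an interval of 0.19 to 2.36 and an unadjusted p of 0.024. The related chemokine Cxcl10 had 0.32 with an interval of −0.60 to 1.23, and 0.943 with an unadjusted p of 0.0335 without isotype replicate 4, which at 295 CPM was the highest of the 16 tumors. Over the fits that left out 1 tumor each, Cxcl10 ranged from 0.114 to 0.943, with unadjusted p values up to 0.806. Gbp2 and Igtp, which encode GTPases that act against intracellular microbes, had 0.74 and 0.75 with unadjusted p values of 0.0291 and 0.0489.

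The level of Cxcl9 also moved with T cell genes from tumor to tumor. Its median log2 ratio to Cd3e was 3.986 in isotype and 3.935 in anti-PD-1 tumors. Across the 16 tumors Cd8a and Cxcl9 had a Pearson's r of 0.891 (permutation p = 1e-05, adjusted 1.5e-05) and a Spearman's rho of 0.882 (2e-05, adjusted 3e-05), with r of 0.848 without the 2 tumors farthest from the median of Cd8a. It was 0.883 within isotype and 0.842 within anti-PD-1 tumors. Irf1 and Cd274 had an r of 0.833 (permutation p = 6e-05, adjusted 6e-05) and a rho of 0.871 (4e-05, adjusted 4e-05). Their r was 0.746 without 2 tumors, 0.927 within isotype and 0.537 within anti-PD-1 tumors.

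Type I interferon-stimulated genes, which restrict viruses in infected cells, had negative point values in 20 of 23 members with a median log2 fold change of −0.12. None of the 23 reached an unadjusted p of 0.05 by edgeR, and for 17 of them the interval lay within −1 and 1. Isg15, a ubiquitin-like modifier, had 24.1 to 368 CPM in isotype tumors with a median of 69.2, and 19.3 to 199 CPM in anti-PD-1 tumors with a median of 71.2. Isotype replicate 4, at 368 CPM, exceeded every other tumor, and the remaining isotype tumors ended at 86.1 CPM.

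Isg15 had a log2 fold change of −0.13 and an unadjusted p of 0.791, and 0.59 without isotype replicate 4. Irf7, the regulator of type I interferon production, went from −0.27 to 0.44 when the same tumor was left out. Mx2, annotated as a polymorphic pseudogene, had the smallest p of the list at 0.211 with a log2 fold change of −0.57. Without isotype replicate 4 the list's median was 0.317 and 22 of 23 members were positive, so that the sign of this list was set by 1 tumor.

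MHC genes, which display peptides to T cells, had positive values for both classes. Class I presentation had 12 of 14 positive with a median log2 fold change of 0.25, 0 at an unadjusted p under 0.05, and 13 of 14 intervals within −1 and 1. That median was 0.514 without isotype replicate 4 and 0.164 without anti-PD-1 replicate 1. Psmb10, an immunoproteasome subunit, and Nlrc5, the activator of class I genes, had 0.39 and 0.48 with unadjusted p values of 0.128 and 0.136. B2m, the invariant light chain, had 670.5 to 3424 CPM in isotype tumors and 843 to 2576 CPM in anti-PD-1 tumors, and its log2 fold change was 0.00077 with an interval of −0.52 to 0.52. Class II presentation had all 7 members positive with a median of 0.81. H2-DMa, which loads peptides, had 0.77 with an unadjusted p of 0.0759, Cd74, the invariant chain, had 0.86 with 0.0982, and the class II chain H2-Aa had 0.81 with 0.137.

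Cd74 had 370 to 1303 CPM in isotype tumors with a median of 531, and 445 to 2097 CPM in anti-PD-1 tumors with a median of 1247. Anti-PD-1 replicates 8, 5, 7 and 1 stood above every isotype tumor and anti-PD-1 replicate 6 among the lowest isotype tumors. Dendritic cells and B cells also carry class II. Dendritic cell genes had 10 of 10 positive values with a median of 0.49. Beside 1.84% of all genes with higher values, 1 of the 10 had an unadjusted p under 0.05. That gene was Batf3, a factor of cross-presenting dendritic cells, with a log2 fold change of 0.76 and an unadjusted p of 0.0477. Ccr7, the receptor that guides dendritic cells and T cells to lymph nodes, had 0.75 with 0.0941. Clec10a, a lectin of dendritic cells and macrophages with the highest average CPM of the list, had 0.40 with an unadjusted p of 0.51. B cell and plasma cell genes had 8 of 10 positive with a median of 0.41, led by Ms4a1, which encodes CD20, at 0.92 with an unadjusted p of 0.126, and the immunoglobulin light chain Igkc had 0.33 with an interval of −1.13 to 1.79. The part of these cells in the class II values was not tested.

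Chemokines for T cells and monocytes had 12 of 14 positive values with a median log2 fold change of 0.53. Beside 1.84% of all genes with higher values, 2 of the 14 were higher at an unadjusted p under 0.05. Both are ligands of CCR4, a receptor of regulatory and other helper T cells. Ccl22 had 0.481 to 3.12 CPM in isotype tumors with a median of 1.10, and 0.555 to 5.26 CPM in anti-PD-1 tumors with a median of 2.38, and its log2 fold change was 1.11 with an unadjusted p of 0.0202. Ccl17 had 0.99 with an unadjusted p of 0.0316 and stayed under 2 CPM in every tumor. Ccl2, which attracts monocytes and had the highest average CPM of the list, had −0.07 with an interval of −0.88 to 0.73.

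Core macrophage genes had values near 0. The 12 core macrophage genes had a median log2 fold change of 0.08, with 10 positive, and all 12 intervals lay within −1 and 1. Cd14, a coreceptor for bacterial lipopolysaccharide, had 0.39 with an unadjusted p of 0.123, and Lyz2, which encodes lysozyme, had 0.18 with an interval of −0.49 to 0.86. Genes linked to anti-inflammatory macrophages had 6 of 12 positive with a median of −0.01, and the scavenger receptor Stab1 had −0.11 with an interval of −0.61 to 0.38. Genes linked to pro-inflammatory macrophages and monocytes had 8 of 10 positive with a median of 0.42. Tnf, which encodes tumor necrosis factor, had 0.74 with an unadjusted p of 0.0547, and Ccr2, the receptor of inflammatory monocytes, had 0.54 with 0.14 and was above the isotype median in all 8 anti-PD-1 tumors.

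Neutrophil genes and ligands of CXCR2 had 10 of 11 positive values with a median of 0.78, but this rested on 1 tumor. Csf3r, the receptor for granulocyte colony-stimulating factor, had 103.5 CPM in anti-PD-1 replicate 4 with the next anti-PD-1 tumor at 28.2 CPM, and its log2 fold change was 0.72 with an unadjusted p of 0.0678. The mean level of the list was 4.51 log2 CPM in that tumor, against a median of 0.25 over the anti-PD-1 tumors and 0.51 over the isotype tumors. Without anti-PD-1 replicate 4 the median of the list was −0.785 and 1 of 11 members was positive.

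Genes that describe the malignant and stromal compartment lay close to 0. All 12 cell cycle genes had intervals within −1 and 1, with a median log2 fold change of −0.02, and 10 of the 12 had negative values. That median ranged from −0.147 to 0.029 with a tumor left out. Mean levels of the list had a median of 6.56 log2 CPM in isotype and 6.34 in anti-PD-1 tumors, where replicate 6 was highest at 7.27. Bub1, a spindle checkpoint kinase, had −0.17 with an interval of −0.69 to 0.34, and Top2a, which untangles replicated DNA, had −0.13 with −0.60 to 0.35. For each gene 1 anti-PD-1 tumor lay above the isotype median, and the lowest values under another setting were −0.679 and −0.638. Targets of p53 and apoptosis genes had a median of 0.01 and all 11 intervals within −1 and 1, with 0.42 and an unadjusted p of 0.0843 for Pmaip1, a killer of the BCL-2 family, and −0.06 for Ccng1, a cyclin that p53 induces. Extracellular matrix and TGF-beta genes had a median of −0.06, with −0.36 for the crosslinking enzyme Lox and 0.05 for the collagen Col3a1. Sarcoma and mesenchymal markers had a median of −0.07, with 0.35 for the growth factor receptor Pdgfra and −0.07 for the filament protein Vim.

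Hypoxia genes had a median of −0.02, with 0.52 for the oxygen sensor Egln3 and −0.04 for the glycolytic enzyme Ldha, and Ca9 had too few counts to be tested. Endothelial genes had a median of 0.003, with −0.30 for the junction protein Cdh5. Immediate early genes, which cells switch on within minutes of a signal, had 9 of 11 positive with a median of 0.22, with 0.71 and an unadjusted p of 0.0373 for Atf3 (0.378 without anti-PD-1 replicate 5) and −0.04 for Jun. Wnt and beta-catenin targets had a median of 0.17, and Ctnnb1, beta-catenin itself, had −0.03 with an interval of −0.29 to 0.23. Sp5, a target of Wnt signalling in the embryo, had an unadjusted p of 0.00547 at a log2 fold change of 2.54, but its highest level in any tumor was 1.39 CPM.

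Markers of tissues that a dissected limb tumor can carry along moved in part with single tumors. Skeletal muscle markers had a median of 0.11, with 0.30 for the myosin Myh4 and an interval of −2.28 to 2.89. Adipose markers had a median of 0.33, with 0.35 for Fabp4, and mast cell markers had 0.28, with 0.42 for Kit and 0.06 for the tryptase Tpsb2. Keratinocyte markers had a median of −0.07 over the 3 tested, with 0.21 for Krt10, and Krt5 and Krt1 had too few counts. Red blood cell markers had a median of 0.86, with 0.97 for Hbb-bt and 0.88 for Hbb-bs, and −0.0135 without anti-PD-1 replicate 4. Nerve glia markers had negative values in all 5 members with a median of −0.48, and −0.0179 without isotype replicate 8. Mbp, a myelin protein, had a log2 fold change of −0.13.

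The median of the T cell receptor list was 0.88 with the mean level of the skeletal muscle markers as a covariate, that of the regulatory T cell list was 0.87 and that of the interferon-gamma list was 0.74. Over fits that left out each of the 16 tumors in turn, the medians ranged from 0.65 to 1.25, from 0.82 to 1.26 and from 0.57 to 0.97. In each of those fits all 14, all 8 and all 15 members were positive, but neither the members nor the fits are independent. The lowest median of the T cell receptor list was found without anti-PD-1 replicate 1. Their highest medians were found without isotype replicate 4, which carried the highest isotype levels of Pdcd1, Cd3e and Cd274.

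**Figure D4:**
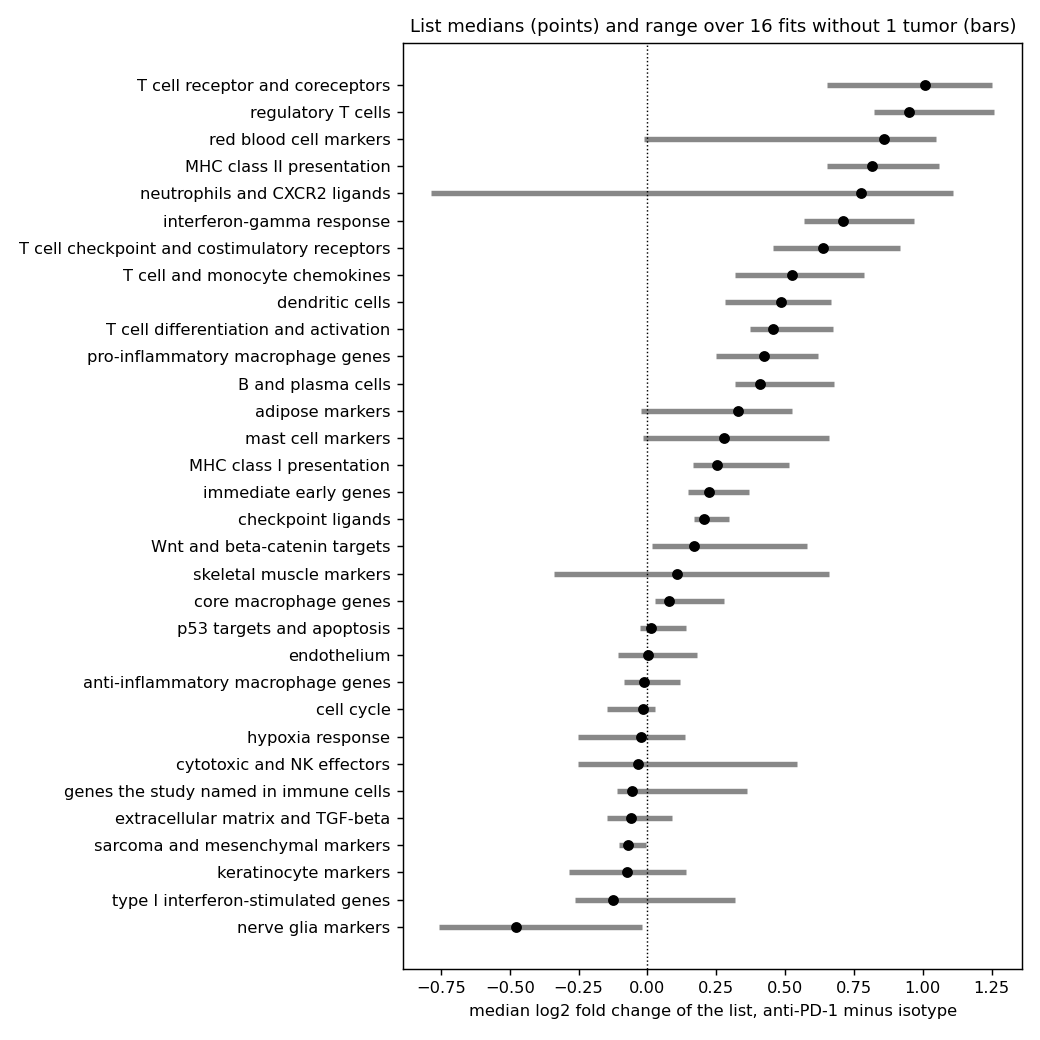
Median log2 fold change of anti-PD-1 over isotype for each gene list (points), with bars for the range of that median over 16 fits that each left out 1 tumor. The T cell receptor, regulatory T cell, MHC class II and interferon-gamma lists are among those that stay above 0. The type I interferon, cytotoxic, neutrophil, red blood cell, mast cell and anti-inflammatory macrophage lists are among those that cross it.

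The study named 20 genes, among them Irf7, Isg15, Gzmb, B2m and Tox, some as higher and some as lower, when it described immune cells sorted from primary tumors after anti-PD-1. That list was chosen on tumors of the same study and is no independent evidence of the direction of any of them, and because it mixes both directions a count over it has no direction of its own. In whole tumors 10 of the 20 had positive values, and 15 of 20 without isotype replicate 4. Pdcd1, Tnfrsf18 and Irf1, described above with positive values, were the members with an unadjusted p under 0.05. The study reported Irf1 as higher in myeloid cells of treated primary tumors, but Pdcd1 and Tnfrsf18 as lower within their CD8+ T cells. For Pdcd1 and Tnfrsf18 the whole-tumor values therefore had the opposite sign. Whole-tumor RNA also depends on the number of T cells, and the cause of this difference was not tested. Over all 326 tested genes of every list, 220 had positive values with a median of 0.20. At an unadjusted p under 0.05, 23 had higher and 2 lower values, beside 1.84% and 1.82% of all genes.

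Since no gene passed the threshold, the protein-coding genes of at least 2 log2 CPM with the smallest unadjusted p are given as ranks. Gsdmd (chr15:75862327-75867408, plus strand) encodes gasdermin D, the protein that opens pores in a dying inflammatory cell. It had 28.6 to 46.1 CPM in isotype tumors with a median of 32.98, and 38.9 to 67.5 CPM in anti-PD-1 tumors with a median of 46.5. All 8 anti-PD-1 tumors lay above the isotype median and isotype replicates 6 and 4 inside the anti-PD-1 range. The log2 fold change was 0.59 with an interval of 0.27 to 0.90, an unadjusted p of 0.000509 and an adjusted p of 0.586.

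Rap1gap, which switches off the small GTPase RAP1, had the smallest unadjusted p on the higher side, 0.000467, with a log2 fold change of 1.09 and an adjusted p of 0.586. C3, the central component of complement, had 25.3 to 127.7 CPM in isotype tumors with a median of 56.5, and 36.7 to 537 CPM in anti-PD-1 tumors with a median of 191. Of the anti-PD-1 tumors 5 stood above every isotype tumor and the other 3 stood within their range. Its log2 fold change was 1.65 with an unadjusted p of 0.00271. Icam1, an adhesion molecule that leukocytes bind on endothelium and that inflammatory signals induce, had medians of 28.2 CPM and 50.4 CPM and a log2 fold change of 0.91 with an unadjusted p of 0.00346.

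The other 6 ranked genes with higher values were Dlx1 (3.49), Crabp2 (1.21), Dio2 (2.39), Wnt10b (2.17), Serpina3f (1.82) and Cacna1h (1.74), given with their log2 fold changes, at unadjusted p values from 0.00361 to 0.00586. Dlx1 rested on single tumors, with a median of 0.152 CPM and a highest value of 7.79 CPM under anti-PD-1, and its log2 fold change was 0.96 without anti-PD-1 replicate 7. Its average of 2.00 log2 CPM was over all 48 tumors, and its mean was 0.102 CPM in isotype and 1.15 CPM in anti-PD-1 tumors. Dio2 had 420 and 198 CPM in anti-PD-1 replicates 4 and 7, and 1.24 with an unadjusted p of 0.0954 without replicate 4. Cacna1h had 28.2 CPM in anti-PD-1 replicate 3, and 1.03 with an unadjusted p of 0.075 without it. Serpina3f, a serine protease inhibitor, was above the isotype median in all 8 anti-PD-1 tumors, with medians of 2.02 CPM and 10.0 CPM.

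Ranked genes with lower values had log2 fold changes from −1.01 to −0.30. Exoc5, a subunit of the exocyst that docks secretory vesicles, had 70.6 to 87.5 CPM in isotype tumors with a median of 78.5, and 56.6 to 79.8 CPM in anti-PD-1 tumors with a median of 63.4. Anti-PD-1 replicate 6 was the only treated tumor above the isotype median. The log2 fold change was −0.30 with an unadjusted p of 0.000493 and an adjusted p of 0.586. Glo1, which detoxifies methylglyoxal, had −0.44, and the ubiquitin ligase adaptor Ndfip2 had −0.52. The others were Hbs1l (−0.30), Uckl1 (−0.39), Tcp11l1 (−0.57), Usp11 (−0.57), Dis3l2 (−0.33), Entpd1 (−0.77, described above) and Gm2115 (−1.01, with medians of 51.2 CPM and 23.3 CPM), at unadjusted p values up to 0.00563. Exons of Icam1, Dlx1, Dio2, Cacna1h, Exoc5, Ndfip2, Hbs1l, Uckl1, Glo1 and Gm2115 overlap those of another annotated gene, so their counts could have been shared. Of the list members and DESeq2 calls named here, the same holds for Cd3e, Lck, Foxp3, Irf1, Irf7, Nlrc5, H2-DMa, Cd74, Stab1, Ctnnb1, Jun, Pdgfra, Krt10, Zfp264 and Hand2os1.

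The 6 genes that DESeq2 called were each high in a few tumors and near 0 in the rest. Tex11, a meiosis gene, and Hand2os1, a long noncoding RNA, were above 1 CPM in 2 anti-PD-1 tumors and 0 isotype tumors, with highest values of 36.1 CPM and 13.6 CPM and adjusted p values by DESeq2 of 0.0034 and 0.00499. F2rl2, a thrombin receptor, was above 1 CPM in 2 isotype and 0 anti-PD-1 tumors (0.0034), and Colec10, a secreted lectin, in 3 isotype tumors and 1 anti-PD-1 tumor (0.0034). Zfp264, annotated as a pseudogene, and the noncoding Gm10451 were above 1 CPM in 3 isotype and 0 anti-PD-1 tumors, each at 0.016. With edgeR their adjusted p values were 0.409 to 0.422.

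The same antibody was given to mice with irradiated primary tumors, taken 3 days after 20 Gy, and to syngeneic mice with tumors transplanted from cell line 402230. Irradiated groups held 8 anti-PD-1 and 8 isotype tumors, and unirradiated transplants held 4 and 4. The median log2 fold change of the T cell receptor list was 1.01 in unirradiated primary tumors, 0.26 in irradiated primary tumors and 0.90 in transplants. For the regulatory T cell list it was 0.95, 0.04 and 0.77, and for the interferon-gamma list 0.71, −0.11 and 0.91. Type I interferon genes had −0.12, −0.43 and 0.59, and cytotoxic genes −0.03, −0.32 and 0.88.

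Whether the effect of the antibody differed between settings was tested gene by gene. For the difference from transplants, edgeR called 0 of 19327 genes (0%) and gave 147 (0.761%) at an unadjusted p under 0.05, and DESeq2 called 1 and gave 172. For the difference from irradiated primary tumors, edgeR called 0 (0%) and gave 1168 (6.04%), and DESeq2 called 9 and gave 1153. Ctla4 had a log2 fold change of 1.52 at 0 Gy and −0.05 at 20 Gy, and the difference of 1.57 had an unadjusted p of 0.0406. Entpd1 had −0.77 at 0 Gy, 0.39 at 20 Gy and 0.37 in transplants, and Pdcd1 had 1.30, 0.23 and 0.92. The differences between list medians in these settings were not tested.

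**Figure D5:**
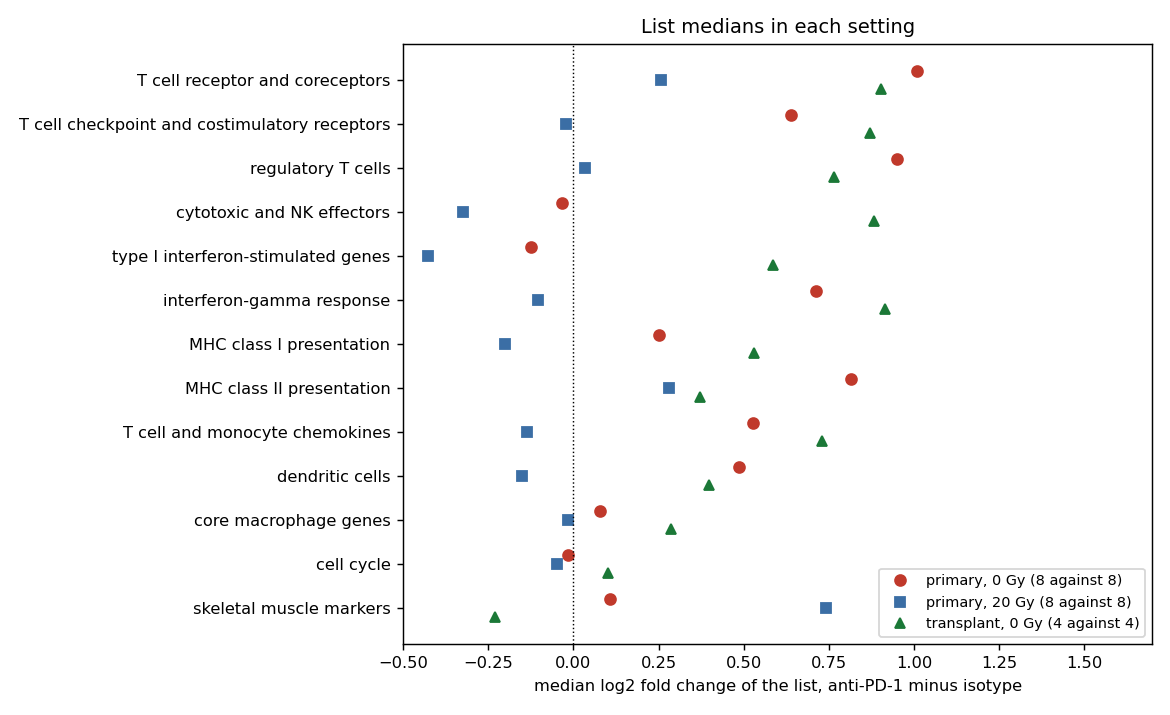
Median log2 fold change of anti-PD-1 over isotype for immune, cell cycle and muscle gene lists in unirradiated primary tumors (8 against 8), primary tumors after 20 Gy (8 against 8) and unirradiated transplants (4 against 4). The T cell receptor list had medians of 1.01, 0.26 and 0.90, and the type I interferon list −0.12, −0.43 and 0.59.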

How the data were processed

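Whole-tumor messenger RNA was captured with oligo-dT beads and made into stranded libraries (KAPA). The deposited file holds raw counts per GENCODE gene, which the authors obtained by the HTSeq method after alignment to mm10 (STAR) of reads cleaned with Trimmomatic 0.36. The sources used here give 2 versions of STAR, and the strand setting of the counting is not given in them. Symbols and GRCm38 coordinates came from a later GENCODE release, which matched 37408 of 37469 identifiers, 35419 of them with the same version. Promoters came from RefSeq (GRCm38.p6).

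Counts of 48 tumors in 8 groups were fitted in R 4.3.3 with edgeR 4.0.16 (filterByExpr with a minimum count of 10, TMM, robust quasi-likelihood F test, one mean per group), with Benjamini-Hochberg adjustment over 19327 genes and a threshold of 0.05. Intervals are 95% t intervals of the fitted log2 fold change, and log2 CPM used a prior count of 2. Library totals were 37743696 to 53341463 counts, and the labels gave neither a batch nor which tumors shared a litter. No 2 of the 56 pairs of tumors within a group agreed within sampling noise, with a lowest chi-square per degree of freedom of 83. Each tumor came from its own mouse, so p-values measure a spread between tumors. In the main fit that spread was estimated over all 48 tumors, transplants and irradiated tumors included. With edgeR on the 16 libraries alone, 488 of 16535 genes had an unadjusted p under 0.05, against 707 of 19327 in the main fit. Alternatives were RLE scaling, no filter, DESeq2 1.42.0, limma-voom 3.58.1, the 16 libraries alone, a skeletal muscle covariate, the parental tumor of line 402230 as a ninth isotype library, and leaving out each tumor. The 16 libraries with the muscle covariate, and the list medians with each tumor left out, were added after seeing the data. Scripts were tested on simulated data.

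The tumors compared, gene lists and tests were chosen with earlier results of these data known. Named genes are the 10 protein-coding genes per direction of at least 2 log2 CPM on average with the smallest unadjusted p, Trp53, Pdcd1 and Cd274, and from each list those with the smallest p and the highest average CPM. Cd8a, Cd4, Cd3e, Icos, Ifng, Isg15, Irf7, H2-Aa, Igtp, Gbp2, Cxcl10, other regulatory T cell genes, Mab21l2 and the genes called by DESeq2 were added for their roles or after their values were seen. 1 gene that the rule names is not reported here.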

Additional observations from a re-analysis of the deposited data

Results flagged for a closer look

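Single tumors stood apart from the other 7 tumors of their group in 15 of the 272 tests of a gene or list in a group (5.51%), by Dixon's criterion with a critical value of 0.526 for 8 tumors, and chance gives about 1 in 20. Levels below are in log2 CPM, with the value of the next tumor of the group. Isotype replicate 4 was highest for Isg15 (8.52, next 6.43), for the mean of the checkpoint ligands (3.74, next 3.16) and for the mean of the genes the study named (7.03, next 5.92). Isotype replicate 5 was highest for Fabp4 (5.98, next 4.18) and the mean of the core macrophage genes (7.60, next 7.08). Isotype replicate 3 was highest for Entpd1 (8.54, next 7.30), isotype replicate 2 for Sp5 (−1.93, next −3.55), and isotype replicate 7 was lowest for Top2a (7.12, next 7.80). Anti-PD-1 replicate 6 was highest for Exoc5 (6.32, next 6.03), Bub1 (6.25, next 5.29) and the mean of the cell cycle genes (7.27, next 6.41). Anti-PD-1 replicate 4 was highest for Mab21l2 (6.33, next 0.58), Csf3r (6.69, next 4.82) and the mean of the neutrophil genes and CXCR2 ligands (4.51, next 1.52), and anti-PD-1 replicate 2 for the mean of the keratinocyte markers (0.48, next −0.30).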

How the results depend on the processing

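The count of genes called by edgeR between anti-PD-1 and isotype tumors was 0 with RLE scaling, without the filter, with the 16 libraries alone, with the muscle covariate in either fit, with the parental tumor as a ninth isotype library and with each tumor left out, and limma-voom also called 0. DESeq2 called 6 there, 1 for the difference from transplants and 9 for the difference from irradiated tumors. Counts with a tumor left out were 0, 0 and 0 to 1 for those 3 comparisons, the 1 being found without anti-PD-1 replicate 1 at 20 Gy. The difference in genes detected ranged from 104.84 to 175.48 with a tumor left out, and it passed 0.05 without isotype replicate 6 (163.55, exact permutation p = 0.0452) or without anti-PD-1 replicate 6 (175.48, p = 0.0213). It was 48.625 at 5 CPM (exact permutation p = 0.408). The median of the neutrophil list ranged from −0.785, without anti-PD-1 replicate 4, to 1.11. Other immune medians that moved by over 1.5 times included T cell and monocyte chemokines (0.318) and pro-inflammatory macrophage genes (0.249) without anti-PD-1 replicate 4. They also included dendritic cells (0.281) without anti-PD-1 replicate 1, and B and plasma cells (0.678) without isotype replicate 6. With a tumor left out, the median of core macrophage genes ranged from 0.0292 to 0.277. That of anti-inflammatory macrophage genes ranged from −0.0833 to 0.119, and that of mast cell markers from −0.0172 to 0.66. Adipose markers had −0.0228 without anti-PD-1 replicate 1. No paired analysis was possible because the labels give no replicate numbers that the groups share.

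Of the named genes, 82 kept their sign under every alternative. The exceptions under another setting, with their log2 fold changes there, were as follows. With the parental tumor as a ninth isotype library Dlx1 had −2.47, Ccl2 0.0684, Stab1 0.0701, Jun 0.0551, Mbp 0.0364 and Lgals9 0.0972. With the 16 libraries and the muscle covariate Gzmb had 0.441, Mx2 0.039, Irf7 0.189, Isg15 0.346, Ccl2 0.359, Ldha 0.0714, Vim 0.00441, Myh4 −0.44 and Lgals9 0.191. With the muscle covariate over all tumors Isg15 had 0.141, Ccl2 0.126, Myh4 −0.354 and Lgals9 0.0608. With limma-voom Gzmb had 0.201, Irf7 0.0153, Ccl2 0.125 and Lgals9 0.0767. With DESeq2 and RLE scaling Ctnnb1 had 0.00797 and 0.00798, Jun 0.00556 and 0.00554 and Lgals9 0.0356 in both, and Lgals9 also had 0.0206 with the 16 libraries alone and 0.0162 without the filter. The cause of these reversals was not tested. With a tumor left out the ranges that crossed 0 were −0.872 to 0.622 for Gzmb, −0.402 to 0.59 for Isg15, −0.439 to 0.44 for Irf7, −0.31 to 0.475 for Ccl2, −0.176 to 0.323 for B2m, −0.129 to 0.275 for Lgals9, −0.0135 to 1.08 for Hbb-bs, −0.0199 to 1.24 for Hbb-bt and −0.678 to 0.782 for Myh4. They were −0.113 to 0.0442 for Ccng1, −0.119 to 0.259 for Col3a1, −0.0637 to 0.0447 for Ctnnb1, −0.0837 to 0.0658 for Jun, −0.152 to 0.098 for Ldha, −0.21 to 0.0184 for Mbp, −0.238 to 0.0194 for Stab1, −0.29 to 0.483 for Tpsb2 and −0.11 to 0.0454 for Vim.

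With 8 tumors a group, no gene passed the adjusted threshold between anti-PD-1 and isotype tumors in edgeR, and the 95% intervals given above show what sizes the data allow for each gene. Whole-tumor RNA does not separate cell types, and tumors were measured at 1 time.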
